A study of Mus musculus with 39 samples.

Results

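RNA polymerase II, the enzyme that transcribes protein-coding genes, is built from subunits encoded by the Polr2 genes, and 10 of these genes, Polr2a to Polr2j, are described here across all groups of the study. They were taken by their symbols from both deposited tables and make up 10 of the 16982 genes listed in either table. All 10 were present in both tables and all 10 passed the filter on low values in every comparison.

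The largest subunit, encoded by Polr2a, and the next largest, encoded by Polr2b, together form the active centre, and the Polr2a product carries the C-terminal tail that is phosphorylated as transcription starts and proceeds. The products of Polr2c and Polr2j form the platform on which the enzyme is assembled, those of Polr2d and Polr2g form a stalk beside the RNA exit channel, and those of Polr2e, Polr2f and Polr2h are shared with RNA polymerases I and III. The product of Polr2i takes part in transcription fidelity. Alpha-amanitin, a mushroom toxin, binds the largest subunit and blocks elongation by RNA polymerase II, and in cultured cells it is known to lead to loss of the Polr2a protein. The files measure RNA and hold no protein values.

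The 39 mouse libraries fall into 10 groups, and the labels say nothing of strain or age. Muscle stem cells were treated during isolation with alpha-amanitin or with its DMSO vehicle (4 libraries each, called alpha-amanitin cells and DMSO cells). RNA labelled with the uracil analogue 4-thiouracil (4tU) was pulled down from stem cells that met 4tU during an isolation of about 6 h (isolation-labelled RNA, 4 libraries), beside total RNA of isolated cells (4 libraries). In Pax7CreER/+: UPRTHA/+ mice, in which Cre driven from the stem cell gene Pax7 switches on the enzyme UPRT that cells use to build 4tU into RNA, labelled RNA was pulled down from whole hindlimb muscle 6 h after 4tU or after injections every 12 h for 1 d or 4 d (4 libraries each), beside total RNA of hindlimb muscle (4 libraries). Stem cells sorted from mice perfused with 1% paraformaldehyde (fixed cells, 4 libraries) stand beside unfixed sorted cells (3 libraries). Libraries were built from polyadenylated RNA by oligo(dT) priming. The labels do not say which libraries come from separate animals, so p-values measure the spread between these libraries, which may be technical.

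Values are the authors' RPKM, reads per kilobase of gene model and per unit of a library size the authors scaled, so a level is relative to the rest of the library and a change in total RNA per cell is not measured. The larger table held 2321903 to 102619074 reads on genes per library, and the fixation table held 22704011 to 25045404. The stem cell label held for isolated cells, where Pax7 averaged 17.9 RPKM. RNA labelled in vivo held far less Pax7, at 0.318 RPKM at 6 h, 0.178 at 1 d and 0.196 at 4 d, against 0.0889 in whole muscle. The 12 satellite cell markers took 1.06% to 1.09% of reads in isolated cells and 0.0417% to 0.0475% at 6 h. They took 0.0219% to 0.0229% at 1 d and 0.0201% to 0.0208% at 4 d, against 0.0168% to 0.0177% in whole muscle. Against whole muscle, limma at an adjusted p under 0.05 called 7 of 10 tested higher and 3 lower at 6 h. It called 3 higher and 2 lower of 9 at 1 d, and 2 and 4 of 9 at 4 d. In RNA labelled in vivo 24 muscle fibre genes took 14.3% to 25.7% of reads, against 23.9% to 24.4% in whole muscle. Fibre genes also took 1.21% to 3.65% of reads in alpha-amanitin cells, against 0.105% to 0.123% in DMSO cells, and 3.50% to 11.7% in isolation-labelled RNA, against 0.139% to 0.25% in isolated cells. Alpha-amanitin replicate 1 stood apart from its group: it correlated better with the mean of the DMSO cells (r = 0.954 over 15647 genes) than with the other alpha-amanitin libraries (r = 0.904). The other 3 correlated at 0.989 to 0.992 with their own group and at 0.888 to 0.893 with the DMSO mean. Yet its fibre genes took 1.21% of reads and the transcript Gm10800 took 2.08%, against 0.105% to 0.123% and 0.134% to 0.24% in DMSO cells. DMSO replicate 1 correlated at 0.983 with its own group, and the other DMSO libraries at 0.994 to 0.995. The former is named as the library labelled alpha-amanitin replicate 1 below, and results are given with it and without it.

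The members differ in gene structure. On mm10, Polr2a lies on chromosome 11 at 69733997-69758637, minus strand, and its gene model of 7067 exonic bases is the longest, followed by 4667 bases for Polr2b on chromosome 5 at 77310147-77349324, plus strand. The other 8 models hold 543 bases (Polr2f) to 2670 bases (Polr2e). Exons of genes on the opposite strand cover 26.8% of the Polr2i model (Tbcb), 26.3% of Polr2c (Dok4), 15.9% of Polr2j (Lrwd1), 5.66% of Polr2h (Clcn2) and 1.82% of Polr2b (Igfbp7). Strand use in the counting was not given in the sources used here: reads of these 5 members may include reads of their partners.

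RefSeq promoter sequences (GRCm38.p6, the assembly of mm10) were matched for 8 of the 10 members, all except Polr2d and Polr2g. The 150 bases before the annotated start of 5 of them are printed because these genes differed in direction or size in the comparisons that follow. Capitals mark 3 searched motifs on either strand, TATAAA (the TATA box), CCGGAAG (bound by ETS factors) and the NRF1 motif (GCGCA and GCGC with 1 free base between them).
Polr2a, chr11:69758634-69758783, - strand: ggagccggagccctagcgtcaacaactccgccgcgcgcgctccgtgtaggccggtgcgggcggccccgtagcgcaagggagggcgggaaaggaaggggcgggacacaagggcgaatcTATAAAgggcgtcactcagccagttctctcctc
Polr2b, chr5:77310334-77310483, + strand: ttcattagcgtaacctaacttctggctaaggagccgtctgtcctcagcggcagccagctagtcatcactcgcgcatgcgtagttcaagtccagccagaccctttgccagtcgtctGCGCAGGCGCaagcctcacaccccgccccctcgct
Polr2e, chr10:80039660-80039809, - strand: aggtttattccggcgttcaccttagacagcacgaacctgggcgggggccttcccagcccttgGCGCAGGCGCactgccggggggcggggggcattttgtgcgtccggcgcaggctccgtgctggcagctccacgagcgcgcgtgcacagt
Polr2f, chr15:79141175-79141324, + strand: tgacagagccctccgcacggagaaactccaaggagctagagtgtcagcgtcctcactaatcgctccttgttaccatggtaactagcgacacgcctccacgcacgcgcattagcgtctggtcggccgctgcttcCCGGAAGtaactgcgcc
Polr2j, chr5:136116541-136116690, + strand: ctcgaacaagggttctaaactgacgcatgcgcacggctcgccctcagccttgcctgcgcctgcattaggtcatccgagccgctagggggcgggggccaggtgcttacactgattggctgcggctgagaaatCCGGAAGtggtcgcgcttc
The Polr2a promoter holds TATAAA beginning at position -33, counted from -1 at the base before the start, and no ETS or NRF1 letters. Within the window from 250 bases before to 50 after the start, TATAAA was found in 2 of the 8 matched members, Polr2a and Polr2c, and in 13.6% of all 32851 promoters. The NRF1 letters were found in 4 members (Polr2b, Polr2e, Polr2f and Polr2h) and in 4.60% of all promoters. The ETS letters were found in 3 members (Polr2c, Polr2f and Polr2j) and in 8.86% of all. Of the other letters searched, GGGCGG (Sp1) was in 6 members and 35.7% of all promoters, CCAAT (NF-Y) in 3 members and 37.4%, and AAGATGGC (YY1) in 0 members and 2.75%. No hit of one motif overlapped a hit of another in the members' promoters.

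The levels separated Polr2a from the smaller subunits. Polr2a averaged 12.4 ± 2.17 RPKM in alpha-amanitin cells and 16.8 ± 4.05 in DMSO cells (SD, n = 4 libraries here and below unless stated). It averaged 5.44 ± 0.846 RPKM in isolation-labelled RNA and 13.8 ± 0.490 in isolated cells. In RNA labelled in vivo it averaged 8.13 ± 0.425 RPKM at 6 h, 4.18 ± 0.285 at 1 d and 3.71 ± 0.192 at 4 d, against 2.51 ± 0.154 in whole muscle. From high to low the order on the deposited scale was DMSO cells, isolated cells, alpha-amanitin cells, 6 h label, isolation label, 1 d label, 4 d label and whole muscle. Libraries overlapped between the first and the second, the second and the third, and the fifth and the sixth of these groups, and did not overlap between the other neighbours. With library size taken from all reads, Polr2a averaged 26.7 RPKM in isolated cells and 25.1 in DMSO cells.

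Polr2b followed neither Polr2a nor the smaller subunits. It averaged 9.59 ± 1.81 RPKM in alpha-amanitin cells and 9.61 ± 1.67 in DMSO cells, and 5.81 ± 1.64 RPKM in isolation-labelled RNA and 7.38 ± 0.242 in isolated cells. It averaged 8.28 ± 0.309 RPKM at 6 h, 10.7 ± 0.658 at 1 d and 9.65 ± 0.430 at 4 d of label, against 18.8 ± 0.820 in whole muscle, the group where its deposited level was highest. The groups other than whole muscle overlapped with at least 1 neighbour in the order of deposited levels. With library size taken from all reads, Polr2b averaged 11.8 RPKM in whole muscle and 14.5 in DMSO cells.

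On the deposited scale the smaller subunits were lowest in isolated cells for all 8 genes, with DMSO cells next. Libraries of isolated and DMSO cells overlapped for all of them except Polr2c and Polr2i. Polr2c, a platform subunit, averaged 38.3 ± 11.2 RPKM in alpha-amanitin cells and 17.1 ± 3.52 in DMSO cells, 73.6 ± 13.7 in isolation-labelled RNA and 13.97 ± 1.11 in isolated cells. Its level was 80.5 ± 2.42 RPKM at 6 h, 104 ± 5.86 at 1 d and 110 ± 6.34 at 4 d of label, against 119.9 ± 2.89 in whole muscle. On the deposited scale, highest levels fell in whole muscle for Polr2c, Polr2f, Polr2g and Polr2j, in 4 d label for Polr2e, in 6 h label for Polr2h, in isolation-labelled RNA for Polr2i and in alpha-amanitin cells for Polr2d. Libraries of the highest group overlapped those of the next for Polr2d, Polr2e, Polr2f and Polr2h. Polr2d averaged 51.1 ± 11.6 RPKM in alpha-amanitin cells and 20.3 ± 5.09 in DMSO cells, against 35.1 ± 1.78 in whole muscle. Over the 8 group means of deposited log2 levels, the 28 pairs among these 8 genes had a median Pearson r of 0.92 (0.41 to 0.99), while Polr2a correlated with the 8 at -0.94 to -0.25 and Polr2b at 0.01 to 0.43. These correlations describe 8 points that share libraries, scaling and tissue, and carry no test.

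**Figure D1:**
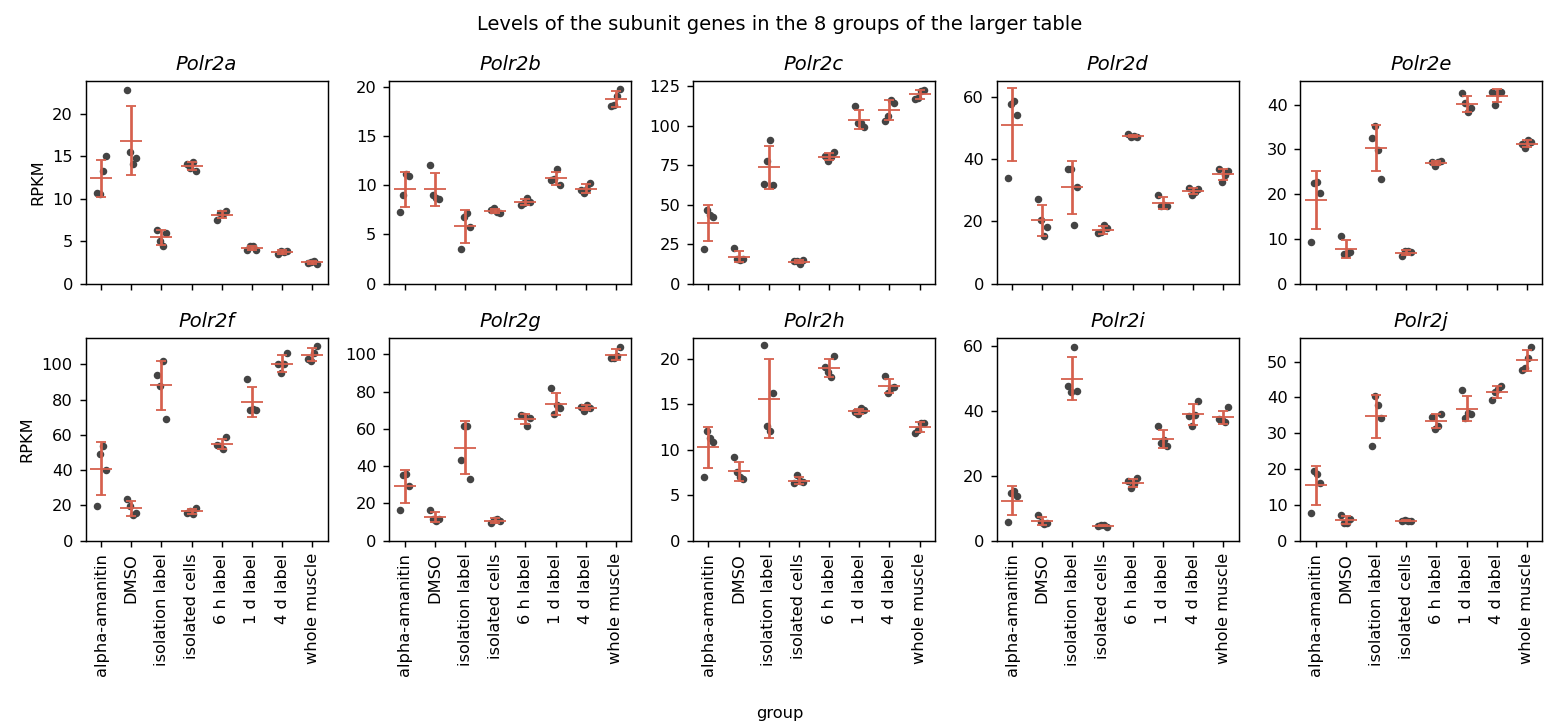
RPKM of the 10 genes (1 panel each, linear axes that start at 0) in the 8 groups of the larger table, with 1 grey point per library and the mean ± SD of 4 libraries in red. On this deposited scale Polr2a is lowest in whole muscle at 2.51 RPKM, whereas Polr2c, Polr2f, Polr2g and Polr2j are highest there.

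The genes whose pattern over the 8 groups was most like that of Polr2a, among 6919 genes averaging 5 RPKM or more, were Sptbn1 (r = 0.993), Brd2 (r = 0.992), Sema4c (r = 0.989), Usp36 (r = 0.987) and Lats2 (r = 0.987). Their gene models hold 4590 to 17492 bases. Brd2, which encodes a bromodomain protein that binds acetylated histones, averaged 38.3 RPKM in alpha-amanitin cells and 53.8 RPKM in DMSO cells, and 6.16 RPKM in whole muscle.

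The comparison of alpha-amanitin cells with DMSO cells asks how RNA made during isolation contributes to the RNA levels of the sorted cells. Of the 10 members, 7 were higher in alpha-amanitin cells at a limma adjusted p under 0.05 and 0 were lower, while 33.9% of the 13710 genes tested were called higher and 10.3% lower. The 7 were both stalk genes, both platform genes, the shared genes Polr2e and Polr2f, and Polr2i. Polr2a, Polr2b and the shared gene Polr2h did not pass. At an unadjusted p under 0.05, limma also found 0 lower, and limma-voom called 0 lower after adjustment. The median log2 fold change was 1.08 over the members and 0.28 over all genes tested.

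Polr2a, the gene of the subunit that alpha-amanitin binds, had 10.7, 10.5, 13.3 and 15.0 RPKM in alpha-amanitin cells (replicates 1 to 4), against 22.8, 15.5, 14.1 and 14.8 RPKM in DMSO cells. On the deposited scale its libraries overlapped between the groups, and DMSO replicate 1 stood above the rest. The log2 fold change was -0.41 ± 0.20 (SE; 95% interval -0.86 to 0.03; limma adjusted p = 0.108), and without the library labelled alpha-amanitin replicate 1 it was -0.35 (adjusted p = 0.0801). Polr2b, the other active-centre gene, had 7.26, 9.05, 11.1 and 10.9 RPKM in alpha-amanitin cells and 12.1, 9.01, 8.73 and 8.60 RPKM in DMSO cells. The groups overlapped on the deposited scale, with a log2 fold change of -0.01 ± 0.18 (95% interval -0.42 to 0.40, adjusted p = 0.970) with all libraries and 0.11 (adjusted p = 0.490) without that library.

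The stalk genes were higher in alpha-amanitin cells. Polr2d had 33.9, 57.6, 58.8 and 54.1 RPKM in alpha-amanitin cells and 27.2, 20.6, 15.2 and 18.3 RPKM in DMSO cells, with no overlap (log2 fold change 1.31 ± 0.24, adjusted p = 0.00542). Polr2g had 16.4, 35.4, 35.6 and 29.2 RPKM in alpha-amanitin cells and 16.6, 11.6, 10.3 and 11.4 RPKM in DMSO cells (1.15 ± 0.27, adjusted p = 0.0103). On the deposited scale both replicates 1 overlapped for Polr2g, where the library labelled alpha-amanitin replicate 1 lay below DMSO replicate 1 and the other 3 alpha-amanitin libraries lay above every DMSO library.

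The platform genes were also higher in alpha-amanitin cells. Polr2j had 7.68, 19.4, 18.5 and 16.03 RPKM in alpha-amanitin cells and 7.26, 4.91, 4.78 and 5.95 RPKM in DMSO cells (1.29 ± 0.28, adjusted p = 0.00850). Polr2c had 21.7, 46.3, 43.4 and 41.9 RPKM in alpha-amanitin cells and 22.4, 15.6, 14.8 and 15.8 RPKM in DMSO cells (1.10 ± 0.26, adjusted p = 0.0112). On the deposited scale, Polr2j was the other member, beside Polr2d, whose libraries did not overlap. There 2 of 10 members were apart in the higher direction, against 17.9% of all genes tested, and 0 in the lower direction, against 9.88%. With library size taken from all reads, Polr2a (10.3 to 16.5 RPKM, against 23.3 to 28.4 in DMSO cells) and Polr2b (8.86 to 11.2, against 13.9 to 15.1) were apart in the lower direction. On that scale Polr2c, Polr2d, Polr2e and Polr2g were apart in the higher direction. The share of all genes apart was not computed for that scale.

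Of the shared subunit genes, Polr2e and Polr2f passed and Polr2h did not, and the difference between them was not tested. Polr2e had 9.25, 22.5, 22.8 and 20.3 RPKM in alpha-amanitin cells and 10.6, 6.57, 6.69 and 7.08 RPKM in DMSO cells (1.16 ± 0.29, adjusted p = 0.0132). Polr2f had 19.9, 49.4, 53.7 and 40.02 RPKM in alpha-amanitin cells and 23.8, 19.8, 14.3 and 15.7 RPKM in DMSO cells (1.06 ± 0.31, adjusted p = 0.0235). In both genes the library labelled alpha-amanitin replicate 1 was the lowest of its group and lay within the DMSO range on the deposited scale. With library size taken from all reads, its Polr2e was 14.3 RPKM, above the 10.5 to 13.3 of DMSO cells. Its Polr2f was then 30.6 RPKM, within their 23.6 to 31.7. The scaling factor behind its deposited RPKM was 1.54, against 0.917 to 0.980 in the other alpha-amanitin libraries. Polr2h had 6.98, 12.0, 11.3 and 10.9 RPKM in alpha-amanitin cells and 9.14, 7.57, 6.98 and 6.77 RPKM in DMSO cells (0.39 ± 0.19, adjusted p = 0.111). Polr2i, which acts in fidelity, had 5.69, 14.6, 15.1 and 13.9 RPKM in alpha-amanitin cells and 7.80, 5.61, 4.96 and 5.38 RPKM in DMSO cells (0.92 ± 0.29, adjusted p = 0.0311).

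**Figure D2:**
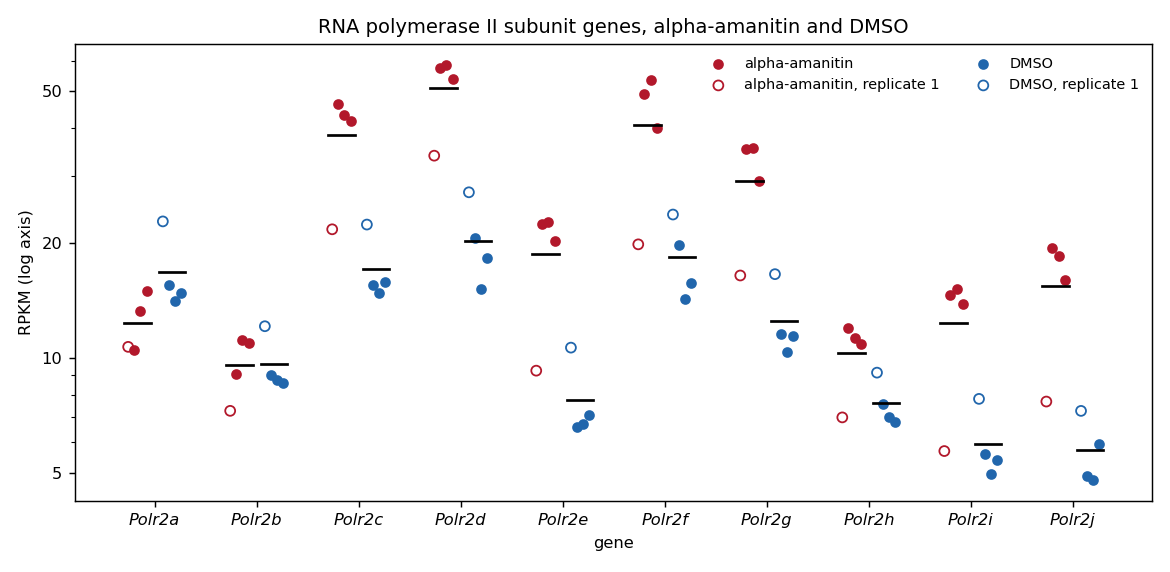
RPKM (log axis) of the 10 genes in alpha-amanitin cells (red, left) and DMSO cells (blue, right), 1 point per library, with replicate 1 of each group as open circles and black lines at the group means. The open red circles lie near the blue points for most genes, as for Polr2c at 21.7 RPKM beside 22.4 RPKM in DMSO replicate 1.

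How many members passed depended on the library labelled alpha-amanitin replicate 1 and on the scaling. Without that library 8 members were higher and 0 lower, Polr2h included (log2 fold change 0.56, adjusted p = 0.00112), beside 54.7% of all genes higher and 24.4% lower. Without both replicates 1, an omission chosen after seeing the data, 9 were higher and 0 lower (all but Polr2a, with Polr2b at 0.22, adjusted p = 0.0359), beside 60.3% and 25% of all genes. Without alpha-amanitin replicate 2, 4 members were higher (Polr2c, Polr2d, Polr2g and Polr2j), beside 2317 of 13406 genes higher and 511 lower. These 4 members passed without any single library of the 8. Polr2f and Polr2i missed the threshold without any 1 of replicates 2, 3 and 4 of either group (adjusted p 0.0520 to 0.0789 and 0.0733 to 0.0979), and Polr2e without alpha-amanitin replicate 2 (adjusted p = 0.0502). Scaled to all reads, 7 members were higher and 2 lower (Polr2a at -0.92 and Polr2b at -0.51), beside 3197 and 4358 of 15146 genes. Scaled to mitochondrially encoded genes, 0 members were higher and 9 lower, beside 281 genes higher and 13269 lower of 15215. These scalings moved the median of all genes from the 0.28 of the deposited scale to -0.29 and -1.20. Relative to the median of all genes, Polr2a lay at -0.78 to -0.63 and the median member at 0.69 to 0.86 on the log2 scale under the 5 scalings tried. A change of scaling moves nearly all genes alike, so these ranges are narrow by construction and do not show which scaling holds.

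A share within the family does not depend on library scaling. Polr2a made up 5.52% ± 1.68 of the summed RPKM of the 10 genes in alpha-amanitin cells (3.79% to 7.66%), against 13.7% ± 0.457 in DMSO cells (13.3% to 14.3%), and the groups did not overlap. The share of Polr2b was 4.18% ± 0.810 in alpha-amanitin cells and 7.95% ± 0.487 in DMSO cells, also without overlap. The summed deposited RPKM, which does depend on it, was 139.5 in the library labelled alpha-amanitin replicate 1 and 252 to 284 in the other 3 alpha-amanitin libraries, against 159.7 in DMSO replicate 1 and 101 to 117 in the other DMSO libraries.

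Values by gene model length and for markers of other cells are given beside this result. Genes with models under 1 kb, the class of Polr2d, Polr2f and Polr2g, had a median log2 fold change of 0.07, with 39.9% called higher and 13.8% lower. Genes with models of 1 to 2 kb had a median of 0.67 and 51.3% of them were called higher, while genes over 4.5 kb, the class of Polr2a and Polr2b, had a median of -0.04 with 17.5% higher and 17.9% lower. All 24 fibre markers were higher in alpha-amanitin cells, and their summed level was 3823 to 19359 RPKM there, against 191 to 295 RPKM in DMSO cells, with at most 1 marker (Tnnc2) at 0 in a DMSO library. Of 10 fibro-adipogenic markers 6 were higher and 0 lower, of 10 immune markers 6 were higher and 1 lower, of 10 endothelial markers 3 were higher and 1 lower, and of 12 satellite cell markers 2 were higher and 2 lower. The 4 erythroid genes tested (median 1.40) and the 10 mitochondrially encoded genes tested (median 1.34) were higher. Gm10800, a transcript that took a large share of some libraries, made up 2.08% to 3.39% of reads in alpha-amanitin cells and 0.134% to 0.24% in DMSO cells. The part of length and of these RNAs in the members' values was not tested. In such bulk RNA, a different mix of cells and a different amount of RNA per cell cannot be told apart.

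Other genes of the transcription machinery were counted in the same fit, where 33.9% of all genes were higher and 10.3% lower. The remaining core subunit genes, Polr2k and Polr2l, both shared with the other polymerases, were higher in alpha-amanitin cells (log2 fold changes 0.89 and 1.01), as was Polr2m, whose product Gdown1 associates with the enzyme (0.94). Of 8 measured RNA polymerase I subunit genes, 4 were higher and 1 lower. Polr1a, the lower one, encodes the largest subunit of that enzyme and averaged 3.51 RPKM in alpha-amanitin cells and 6.79 RPKM in DMSO cells (-0.86 ± 0.14, adjusted p = 0.00328). Of 11 RNA polymerase III subunit genes, 5 were higher and 2 lower, and the 2 encode its largest subunits, Polr3a (-0.50 ± 0.12, adjusted p = 0.0126) and Polr3b (-0.57 ± 0.13, adjusted p = 0.0108). The gene models of Polr1a, Polr3a and Polr3b hold 6105, 4683 and 4829 bases.

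Of 18 general transcription factor genes 6 were higher and 1 lower, a share higher near that of all genes. Gtf2h5, of the factor TFIIH, averaged 13.5 RPKM in alpha-amanitin cells and 5.73 RPKM in DMSO cells (1.14 ± 0.26, adjusted p = 0.00967). Of 29 pausing and elongation factor genes 12 were higher and 2 lower. Tcea3, a member of the TFIIS family of elongation factors, averaged 29.05 RPKM in alpha-amanitin cells and 3.46 RPKM in DMSO cells (2.73 ± 0.40, adjusted p = 0.00228), Supt4a of the DSIF complex was also higher (1.40 ± 0.27), and Ccnt2, a cyclin of P-TEFb, was lower (-0.53 ± 0.12). Of 12 genes for phosphatases and binders of the C-terminal tail 3 were higher and 0 lower, led by the phosphatase gene Ctdp1 (1.57 ± 0.31, adjusted p = 0.00614). Of 14 genes for assembly and import of the enzyme 9 were higher and 0 lower, among them Pfdn6, a prefoldin subunit (1.34 ± 0.34), and Pih1d1 of the R2TP co-chaperone (1.32 ± 0.29). Without the library labelled alpha-amanitin replicate 1 the counts higher and lower were 4 and 2 for polymerase I, 7 and 4 for polymerase III, 13 and 1 for general factors, 21 and 3 for elongation factors, 7 and 0 for the tail list and 13 and 0 for the assembly list, in a fit where 54.7% of all genes were higher and 24.4% lower.

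Isolation-labelled RNA, set against the total RNA of isolated cells, separated Polr2a from the smaller subunits more widely. In labelled RNA 8 members were higher and 1 lower, beside 29.8% of 14863 genes called higher and 29.7% lower. The median log2 fold change was 2.09 over the members and -0.07 over all genes. Polr2i showed the largest difference among the members, with 47.7, 45.8, 59.7 and 46.2 RPKM in isolation-labelled RNA and 4.59, 4.75, 4.70 and 4.32 RPKM in isolated cells (3.30 ± 0.12, limma adjusted p = 1.3e-07). Polr2f (2.37 ± 0.14), Polr2j (2.53 ± 0.15) and Polr2c (2.34 ± 0.14) were also higher without overlap, and the other higher members ranged from 0.77 (Polr2d) to 2.13 (Polr2g). On the deposited scale the 8 higher members and the 1 lower member had no overlapping libraries, as was so for 29.2% of all genes in the higher and 29.5% in the lower direction. For Polr2d the gap was slight, with 18.933 RPKM (117 reads) in isolation label replicate 3 and 18.927 in isolated cells replicate 3. With library size taken from all reads, that labelled library held 20.9 RPKM of Polr2d, below the 31.4 to 36.1 of isolated cells.

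Polr2a had 6.27, 5.05, 4.44 and 6.00 RPKM in isolation-labelled RNA and 14.1, 13.6, 14.4 and 13.2 RPKM in isolated cells, a log2 fold change of -1.28 ± 0.14 (adjusted p = 5.05e-05). It was named here, after its values were seen, as the 1 member that was lower. Polr2b differed by -0.36 ± 0.21 (adjusted p = 0.162). Polr2a made up 1.45% ± 0.368 of the summed RPKM of the members in isolation-labelled RNA and 13.4% ± 0.735 in isolated cells. Scaled to all reads, 6 members were higher and 2 lower, Polr2b among the lower, beside 3019 and 8099 of 16363 genes. The median of all genes then moved to -0.71. Genes over 4.5 kb had a median of -0.50 and genes under 1 kb a median of 0.91 in this comparison, and the fibre share differed as given above. Of 12 satellite cell markers 0 were higher and 9 lower in isolation-labelled RNA, and they took 0.237% to 0.451% of reads there and 1.06% to 1.09% in isolated cells. Higher were 9 of 10 fibro-adipogenic markers (1 lower), 8 of 10 immune markers (1 lower), 6 of 10 endothelial markers (2 lower) and, of those tested, 4 of 4 erythroid genes and 11 of 11 mitochondrially encoded genes. Gm10800 took 2.99% to 5.93% of reads in isolation-labelled RNA and 0.286% to 0.313% in isolated cells. The part of length and of these RNAs in the members' values was not tested.

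**Figure D3:**
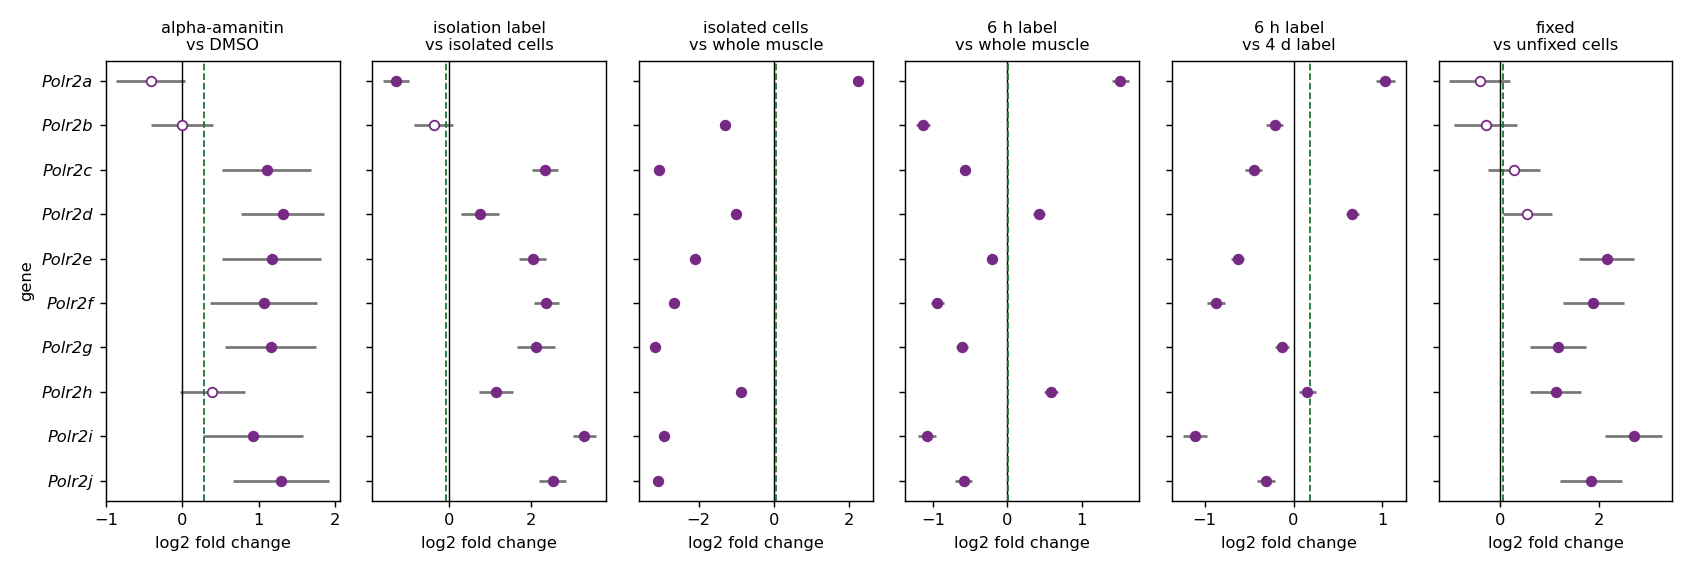
Log2 fold changes (x axes) of the 10 genes in 6 of the 8 comparisons, with 95% intervals from limma as grey lines. Filled points passed an adjusted p of 0.05, open points did not, black lines mark 0 and dashed green lines mark the median of all genes tested, and Polr2a lies on the other side of 0 from Polr2i in the 6 panels. The 1 d and 4 d labels against whole muscle are not drawn, and at 4 d both genes lie above 0 (Polr2a at 0.49, Polr2i at 0.03).

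Isolated cells and whole muscle differed in every member. In isolated cells Polr2a was higher and the other 9 members were lower, beside 48.8% of 14813 genes called higher and 46.5% lower. Genes over 4.5 kb had a median of 0.58 with 61.4% higher. Genes of 1 to 2 kb had a median of -0.75 with 56.4% lower, and genes under 1 kb a median of 0.88 with 42.2% lower. The part of length in the members' values was not tested. Polr2j had 5.49, 5.77, 5.39 and 5.42 RPKM in isolated cells and 47.8, 48.3, 51.1 and 54.1 RPKM in whole muscle (-3.08 ± 0.04, adjusted p = 1.32e-14). Polr2i (-2.92 ± 0.05), Polr2c (-3.06 ± 0.05) and Polr2g (-3.17 ± 0.06) were lower by similar amounts, and Polr2h was lower by the least (-0.87 ± 0.05). Polr2a had 14.1, 13.6, 14.4 and 13.2 RPKM in isolated cells and 2.47, 2.51, 2.71 and 2.34 RPKM in whole muscle (2.25 ± 0.05, adjusted p = 3.62e-13), again named after its values were seen. No member's libraries overlapped, 1 in the higher direction, against 48% of all genes, and 9 in the lower, against 45.7%. Scaled to all reads, 4 members were higher and 6 lower, beside 12378 and 3352 of 16285 genes. Polr2b, Polr2d and Polr2h were then above whole muscle (0.26, 0.59 and 0.67), while the median of all genes moved from 0.06 to 1.59. Relative to that median, Polr2b lay at -1.35 to -1.32 and Polr2a at 2.12 to 2.23 under the 3 scalings. These ranges are narrow by construction, as a scaling moves nearly all genes alike.

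RNA labelled in vivo is set against whole muscle, the same 4 libraries for all 3 label times, so the 3 comparisons share their controls. Background rates were 45.6% higher and 44.4% lower of 11746 genes at 6 h, 28.2% and 54.7% of 11158 genes at 1 d, and 28.1% and 56.4% of 11347 genes at 4 d. Among genes over 4.5 kb, 62.0% were higher at 6 h, 38.3% at 1 d and 32.6% at 4 d. The part of length in the members' values was not tested. Members higher and lower numbered 3 and 7 at 6 h, 3 and 7 at 1 d, and 3 and 5 at 4 d. The higher ones were Polr2a, Polr2d and Polr2h at 6 h and Polr2a, Polr2e and Polr2h at 1 d and at 4 d. Polr2a had 7.52, 8.27, 8.21 and 8.50 RPKM in 6 h labelled RNA, against 2.47 to 2.71 RPKM in whole muscle, and its log2 fold change against whole muscle was 1.52 ± 0.05 at 6 h (adjusted p = 2.13e-11), 0.64 ± 0.06 at 1 d (adjusted p = 2.24e-07) and 0.49 ± 0.05 at 4 d, the last named after its values were seen.

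Polr2b was lower than in whole muscle at all 3 times, by -1.14 ± 0.04 at 6 h (adjusted p = 4.09e-11), -0.78 ± 0.05 at 1 d (adjusted p = 8.52e-09) and -0.93 ± 0.04 at 4 d (adjusted p = 1.03e-09). Polr2f (-0.94 ± 0.04) and Polr2i (-1.08 ± 0.05) were lower at 6 h, and at 4 d their differences of -0.07 and 0.03 did not pass (adjusted p = 0.123 and 0.639). Polr2g was lower at 1 d (-0.45 ± 0.05) and at 4 d (-0.48 ± 0.03). Polr2e was higher at 1 d (0.35 ± 0.04) and at 4 d (0.42 ± 0.04), and Polr2h at 4 d (0.43 ± 0.04). Without 4 d replicate 4, Polr2f was also lower at 4 d (-0.10, adjusted p = 0.0318). Scaled to all reads the counts were 4 higher and 6 lower at 6 h, with Polr2e then above whole muscle, and 5 higher and 2 lower at 4 d. All genes higher and lower were then 6608 and 3501 of 11216 at 6 h, and 3940 and 4802 of 10331 at 4 d.

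The 6 h and 4 d labels were compared directly. At 6 h 3 members were higher and 7 lower than at 4 d, beside 52.7% of 11975 genes called higher and 36.1% lower. Polr2a had 7.52, 8.27, 8.21 and 8.50 RPKM in 6 h labelled RNA and 3.44, 3.81, 3.74 and 3.87 RPKM in 4 d labelled RNA (1.03 ± 0.05, adjusted p = 1.22e-09). Polr2d, a stalk gene, had 48.1, 47.2, 47.4 and 47.2 RPKM at 6 h and 30.7, 28.5, 29.5 and 30.5 RPKM at 4 d (0.66 ± 0.03, adjusted p = 1.62e-09). Polr2f (-0.87 ± 0.05, adjusted p = 2.25e-09) and Polr2e (-0.63 ± 0.03, adjusted p = 3.23e-09) were lower at 6 h, and the other members ranged from -1.11 (Polr2i) to 0.16 (Polr2h). Libraries overlapped for Polr2h alone of the 10 members, so 2 were apart in the higher direction, against 50.5% of all genes, and 7 in the lower, against 34.2%. Genes under 1 kb had a median of -0.66 and genes over 4.5 kb a median of 0.43, and the transcript Gm10800 took 13.0% to 17.5% of reads at 6 h, against 1.26% to 1.95% at 4 d. Their part in the members' values was not tested.

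**Figure D4:**
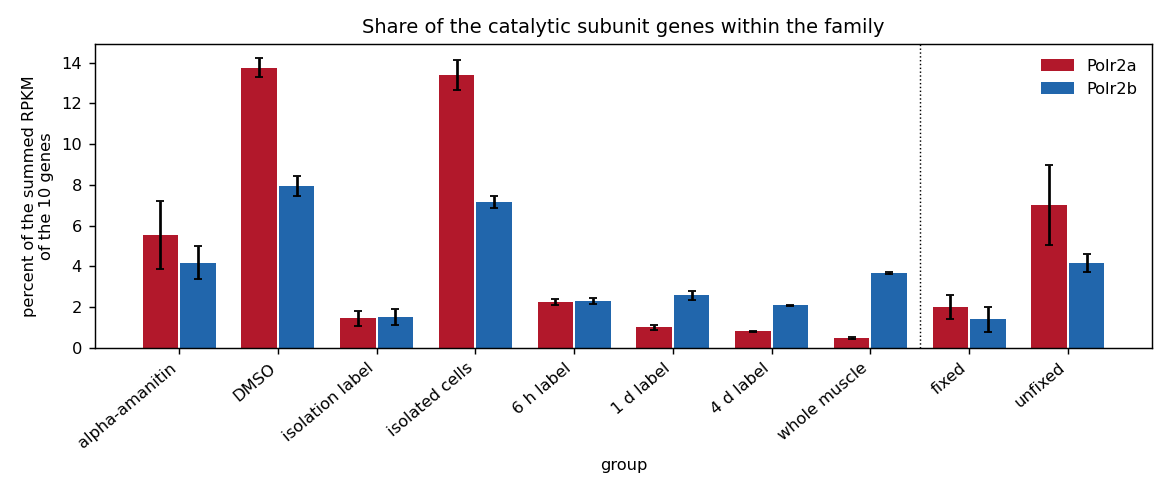
Share of the summed RPKM of the 10 genes (y axis, percent, mean ± SD) taken by Polr2a (red) and Polr2b (blue) in each group, with 4 libraries a group except 3 of unfixed cells, and the fixation table right of the dotted line. Polr2a takes 13.7% in DMSO cells and 13.4% in isolated cells and 5.52% or less in the other groups of the larger table.

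Fixed and unfixed sorted cells come from a separately normalised table, in which stem cells fixed in the animal before isolation are compared with cells isolated without fixation. In fixed cells 6 members were higher and 0 lower, beside 12.2% of 12816 genes called higher and 10.8% lower. The median log2 fold change was 1.15 over the members and 0.07 over all genes. Polr2i had 55.3, 92.2, 102 and 106.7 RPKM in the 4 fixed libraries and 13.6, 13.2 and 11.8 RPKM in the 3 unfixed libraries (2.71 ± 0.26, adjusted p = 0.000167). Polr2e had 89.3, 76.8, 144 and 87.4 RPKM in fixed cells and 22.99, 22.3 and 18.4 RPKM in unfixed cells (2.16 ± 0.25, adjusted p = 0.000397). Polr2f (1.89 ± 0.28, adjusted p = 0.00125) and Polr2j (1.85 ± 0.28, adjusted p = 0.00149) followed, and Polr2g and Polr2h were higher by 1.17 and 1.13. Fixed and unfixed libraries did not overlap for any of these 6 genes, nor for Polr2d, so 7 of 10 members were apart in the higher direction, against 19.6% of all genes, and 0 in the lower direction, against 16.2%.

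Polr2a had 10.6, 16.96, 12.4 and 12.4 RPKM in fixed cells and 12.4, 22.8 and 18.2 RPKM in unfixed cells, which overlapped (-0.41 ± 0.27, 95% interval -1.03 to 0.20, adjusted p = 0.312). Polr2b had 10.2, 9.31, 5.29 and 10.5 RPKM in fixed cells and 9.85, 10.7 and 11.1 RPKM in unfixed cells (-0.29 ± 0.29, adjusted p = 0.506). The stalk gene Polr2d (0.56 ± 0.22, adjusted p = 0.102) and the platform gene Polr2c (0.29 ± 0.23, adjusted p = 0.408), both among the 7 higher in alpha-amanitin cells, did not pass here. The share of Polr2a in the summed RPKM was 1.99% ± 0.592 in fixed cells (n = 4) and 7.01% ± 1.97 in unfixed cells (n = 3). The count of 6 members was also found without any 1 of the 7 libraries, while all genes called ranged from 809 higher and 718 lower without unfixed replicate 3 to 1821 and 1563 without fixed replicate 4, against 1564 and 1387 with all libraries. Without unfixed replicate 2 they were 982 and 880. Genes under 1 kb had a median of 1.00 with 45.8% higher and genes over 4.5 kb a median of 0.00 with 6.58% higher. Mitochondrially encoded RNA took 2.63% to 3.68% of reads in fixed cells and 0.761% to 1.48% in unfixed cells, all 10 endothelial markers were lower in fixed cells, and of 23 fibre markers 9 were lower and 0 higher. Of 12 satellite cell markers 2 were higher and 4 lower, and they took 0.392% to 0.694% of reads in fixed cells and 0.819% to 0.917% in unfixed cells. Pax7 averaged 65.4 RPKM in fixed cells and 29.5 in unfixed cells. The part of length, mitochondrial RNA or other cells in these values was not tested.

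**Figure D5:**
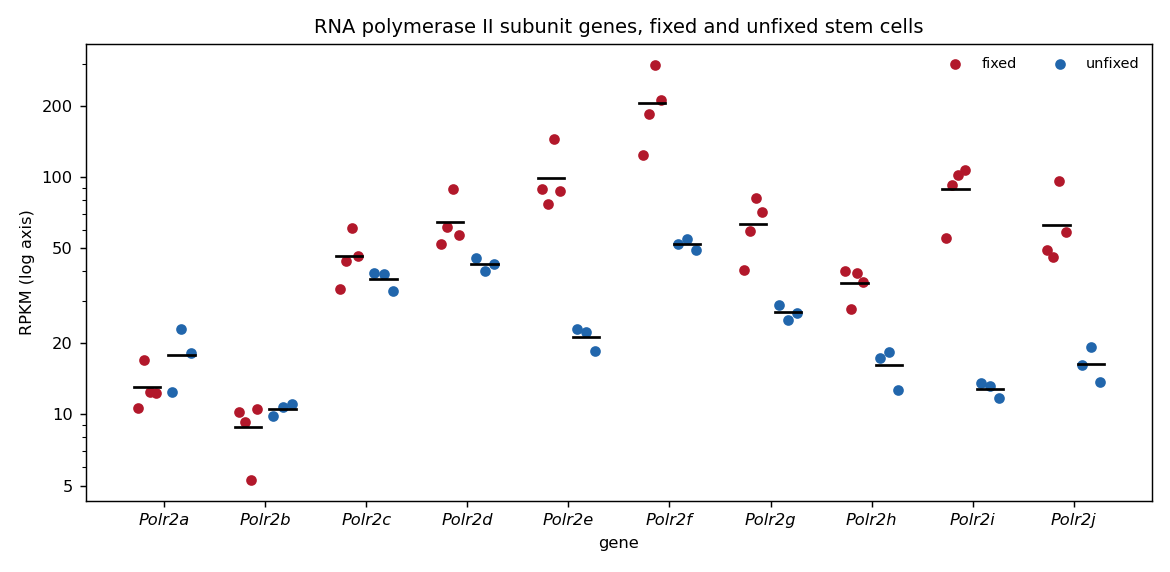
RPKM (log axis) of the 10 genes in fixed cells (red, left, 4 libraries) and unfixed cells (blue, right, 3 libraries), 1 point per library, with black lines at the group means. Fixed libraries lie above all unfixed ones for Polr2d to Polr2j, and overlap them for Polr2a, Polr2b and Polr2c.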

How the data were processed

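The authors used mm10 with Trim Galore, STAR, featureCounts (Subread) and edgeR, per the submitters' processing notes. Their versions, settings and strand use were not given in the sources used here. RPKM were deposited by the authors in 2 tables, of 32 and 7 libraries, with replicates kept apart, normalised separately and tested separately. The header of the larger table stands 1 cell left of its values, and columns were read by position. RPKM times model length came out as whole reads within 0.1 for 100% of values, which gave the reads per library. The scaling factors behind the RPKM ran from 0.612 to 1.95 and from 0.903 to 1.01. No value column was left unused, and 0 pairs of libraries were identical.

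As the unit was RPKM, limma 3.58.1 (R 4.3.3, with trend) was run on log2(RPKM + 0.5) of the 2 groups compared, keeping genes that reached 1 RPKM in 3 or more libraries, with Benjamini-Hochberg adjustment over all genes and calls at 0.05. Fold changes on this scale understate low genes. The step was tested on simulated data. Python 3.11.15, pandas 2.3.3, numpy 2.4.6 and matplotlib 3.10.9 made the tables and figures. The members, lists, comparisons and alternatives were chosen with earlier results of these data known. All members are named with levels. Tests are named for every member under alpha-amanitin, and elsewhere for the 4 with the smallest adjusted p. Other lists give up to 3 called genes. Alternatives covered scaling, pseudocount, filter, limma-voom on the recovered reads, all groups in 1 fit, a replicate block and leaving out each library.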

Additional observations from a re-analysis of the deposited data

Results flagged for a closer look

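In 90 sets of 4 libraries (9 groups by 10 genes), 10 held 1 library whose gap to its nearest neighbour was over 0.829 of the range of the set, where chance flags about 1 set in 20. DMSO replicate 1 was high for 4 genes, with 22.8 RPKM of Polr2a, 12.1 of Polr2b, 22.4 of Polr2c and 10.6 of Polr2e. These 4 flags share 1 library and are not separate events. With library size taken from all reads, it held 15.1 RPKM of Polr2b, against 13.9 to 14.5 in the other DMSO libraries, and 27.9 of Polr2c, against 24.5 to 25.6. The scaling factor behind its deposited RPKM was 1.25, against 1.60 to 1.66 in the others. The library labelled alpha-amanitin replicate 1 was low for Polr2i, at 5.69 RPKM against 13.9 to 15.1 in the others. The 1 d label replicate 1 was high for Polr2d (28.6 RPKM) and Polr2f (91.6 RPKM). Isolation label replicate 3 was high for Polr2i (59.7 RPKM). Isolated cells replicate 3 was low for Polr2c (12.3 RPKM), and 4 d label replicate 2 was low for Polr2e (39.99 RPKM against 42.6 to 42.9 in the others).

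For 2 members the 6 h and 4 d labels were called on opposite sides of the same whole-muscle libraries, and the difference between the label times was itself called. Polr2i, at -1.08 at 6 h and 0.03 at 4 d, also changed side, but its 4 d value did not pass. Polr2d was above whole muscle by 0.43 at 6 h and at -0.23 at 4 d, a difference of 0.66 (limma adjusted p = 1.62e-09). Polr2e was at -0.21 at 6 h and 0.42 at 4 d, a difference of -0.63 (limma adjusted p = 3.23e-09), and scaled to all reads it was above whole muscle at 6 h as well, by 0.14.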

How the results depend on the processing

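Among the alternatives tried, pseudocounts of 1 and 0.1, no filter on low values and limma-voom on recovered reads left every count of members called within 1.5 times, except that limma-voom called 2 members lower in isolation-labelled RNA. Under alpha-amanitin, members higher and lower were 7 and 1 with median-of-ratios scaling, 7 and 2 with all reads, 7 and 2 without fibre, mitochondrial and Gm10800 reads, 0 and 9 with mitochondrially encoded genes, and 8 and 1 with all groups in 1 fit. All genes higher and lower were 4762 and 2243 of 13902 with median-of-ratios scaling and 6166 and 3125 of 13710 with all groups in 1 fit. Without fibre, mitochondrial and Gm10800 reads they were 3631 and 3605 of 14266. Leaving out 1 library gave 4 to 8 higher and 0 lower, and leaving out both replicates 1, chosen after seeing the data, gave 9 and 0. With a replicate block 2 members were higher (Polr2d and Polr2j) and 0 lower. The labels do not say whether replicate numbers pair libraries. Same-numbered libraries there had correlations of deviations of -0.59 to -0.11, which cannot decide it, as replicate 1 stood apart in both groups. In no comparison did every library correlate best with its own number. The block moved no other count of members by over 1.5 times. All groups in 1 fit could not be run for the fixation table, which holds 2 groups.

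Signs reversed for alpha-amanitin against DMSO with mitochondrial scaling for Polr2c (-0.49), Polr2d (-0.29), Polr2e (-0.39), Polr2f (-0.53), Polr2g (-0.43), Polr2h (-1.14), Polr2i (-0.61) and Polr2j (-0.25). Polr2h was also at -0.10 with all reads and -0.021 without fibre, mitochondrial and Gm10800 reads. Polr2b was at 0.11 without alpha-amanitin replicate 1, 0.01 without its replicate 2, 0.10 without DMSO replicate 1 and 0.22 without both replicates 1; leaving out 1 library gave Polr2b values of -0.083 to 0.11. The cause of these changes was not tested.

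With all reads, 2 members were lower in isolation-labelled RNA, 4 higher in isolated cells against whole muscle, and 5 higher and 2 lower at 4 d. All groups in 1 fit gave 2 lower in isolation-labelled RNA, 1 higher and 4 lower at 1 d, 2 lower at 4 d, and 4 lower at 6 h against 4 d. The summed RPKM of the members with all reads was 245 in alpha-amanitin cells and 183 in DMSO cells, 456 in isolation-labelled RNA and 199.6 in isolated cells, 292, 308 and 335 at 6 h, 1 d and 4 d against 323 in whole muscle, and 658 in fixed cells and 236 in unfixed cells. All genes called higher and lower under alpha-amanitin were 4646 and 1412 on the deposited scale, 3197 and 4358 with all reads, 281 and 13269 with mitochondrial scaling, 1678 and 300 with the replicate block, and 2317 to 7367 and 511 to 3293 with 1 library left out. With all reads they were 3019 and 8099 in isolation-labelled RNA (4426 and 4417 as deposited), 12378 and 3352 in isolated cells against whole muscle (7227 and 6884), 6608 and 3501 at 6 h (5357 and 5220), 4228 and 4186 at 1 d (3149 and 6101) and 3940 and 4802 at 4 d (3189 and 6397). All groups in 1 fit gave 5335 and 5646 in isolation-labelled RNA, 1836 and 3691 at 1 d, and 1883 and 4154 at 4 d. For 6 h against 4 d that fit gave 4835 and 2941. The block gave 845 and 980 in fixed cells (1564 and 1387). The lowest depth behind a member was 47 reads, for Polr2h in isolation-labelled RNA, so small differences there were not detectable.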

Other observations

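Genes around the polymerase were counted in the other comparisons as well, beside each comparison's share of all genes called. In isolated cells against whole muscle, 17 of 18 general transcription factor genes were lower and 1 higher, and 13 of 14 assembly and import genes were lower and 1 higher, where 46.5% of all genes were lower. The 12 genes for phosphatases and binders of the C-terminal tail divided into 7 higher and 5 lower, and the 29 pausing and elongation genes into 14 and 15. In 6 h label against 4 d label, 20 of the 29 pausing and elongation genes were higher and 5 lower, and 8 of the 12 tail genes were higher and 3 lower, where 52.7% of all genes were higher. In fixed against unfixed cells, 4 of 29 pausing and elongation genes were higher and 3 lower, and 1 of 11 polymerase III genes was higher, where 12.2% of all genes were higher.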
